A study of Macaca mulatta with 20 samples.

Results

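The comparison described here set the late corpus luteum of the rhesus macaque against the mid-stage gland, 14 to 16 days against 7 to 8 days after the surge of luteinizing hormone (LH). Its members were chosen from the array titles: the 4 arrays titled as late and the 4 titled as mid luteal phase, 8 of the 20 arrays of the series. All 20 corpora lutea came from female macaques with normal menstrual cycles and no drug or genetic treatment, and 4 arrays were made at each of the other stages, early at 3 to 5 days, mid-late at 10 to 12 days and very-late at 18 to 19 days after the surge. By the study's account the mid gland is at its highest progesterone output and the late gland is in functional regression, when progesterone secretion ceases, so the comparison asks which transcripts separate a gland at full function from one that is losing it, before the structural breakdown that the study assigns to the very-late stage. Day 0 was set from daily serum estradiol, the gland was frozen at surgery, and total RNA of the whole gland was hybridised, so every cell type of the tissue contributes. The titles call the 4 arrays of a stage biological replicates, and the age of the animals was not given in the sources used here. The limma p-values set each difference against a spread between replicate arrays that is shared by all 5 stages.

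The corpus luteum forms from the ruptured follicle and makes progesterone from cholesterol, which the STAR protein moves into mitochondria and the enzymes CYP11A1 and 3-beta-hydroxysteroid dehydrogenase (HSD3B2) convert. Pituitary LH, acting through cyclic AMP, maintains the gland, and in a cycle without pregnancy the primate gland first loses progesterone secretion (functional regression) and later its cells and vessels (structural regression). Macrophages and other leukocytes are known to enter the regressing gland in several species, where they clear dying cells and present antigen.

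The luteal markers showed that both stages were luteal tissue. STAR, HSD3B2, CYP19A1 (aromatase, which makes estrogen), INHA (the inhibin alpha subunit) and FDX1 (ferredoxin, the electron donor of mitochondrial steroid enzymes) had stage means between 9.35 and 13.37 on the log2 scale, against a background of 3.42, the median of the array's viral-genome probe sets. NR5A1, a transcription factor also listed as a luteal marker, lay under that range in both stages, with its readings given further on. Markers of other follicles (5 measured) and of B cells (3 measured) gave no called gene by limma, and 1 and 0 genes at an unadjusted p under 0.05. The median signal per array and the difference between the 3' and 5' probe sets of GAPDH and actin did not separate the stages (exact permutation p = 0.743, 0.657 and 0.943, two-sided). Mitochondrial-genome probe sets did: their mean over 6 probe sets ran from 7.67 to 8.93 in the mid arrays and from 11.96 to 12.17 in the late arrays (exact permutation p = 0.0286, the smallest that 70 splits allow, and 0.114 adjusted over the 4 measures). Of these 6 probe sets, 4 differed by 4.33 to 6.48 log2 units and 2 by -0.23 and 0.37. The stage and this property of the arrays cannot be told apart within the 8 arrays, so results are also given from a fit with a term for it over all 20. Late replicate 1 stood apart from the other late arrays in many genes described below. Values without it are given for the counts of calls and for some of these genes, and the other values include it.

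Between the stages, 1143 of 52707 probe sets passed the test (2.17%), 563 higher (1.07%) and 580 lower (1.10%) in the late gland, by limma with an adjusted p under 0.05. At least 2-fold were 403 of them (0.765%), 220 higher and 183 lower. With 1 probe set per gene, 503 of 14132 genes passed (3.56%), 223 higher (1.58%) and 280 lower (1.98%). Of these, 186 differed at least 2-fold (1.32%), 101 higher and 85 lower, 35 at least 4-fold and 8 at least 8-fold. The median difference over all genes was -0.01, and in 2077 genes (14.7%) the 4 late arrays lay wholly on one side of the 4 mid arrays. In the late gland, lysozyme, the metalloproteinase MMP9, 6 of 8 macrophage markers and 9 of 17 antigen presentation genes were higher, while HSD3B2, HSD11B1, the beta-defensins DEFB122 and DEFB119, the activin antagonist FSTL3 and 4 of 22 DNA replication and mitosis genes were lower. STAR and CYP19A1 did not pass the test in either direction. Without late replicate 1 the calls went from 563 higher and 580 lower probe sets to 604 higher and 412 lower. Leaving out late replicate 3 gave 488 probe sets and 230 genes, the fewest of the 8 arrays. Of the 102 called genes given values in the text, 46 passed in every leave-one-out fit, 15 lost the call in 1 to 5 of the 8 fits and 41 in 6 to 8.

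**Figure D1:**
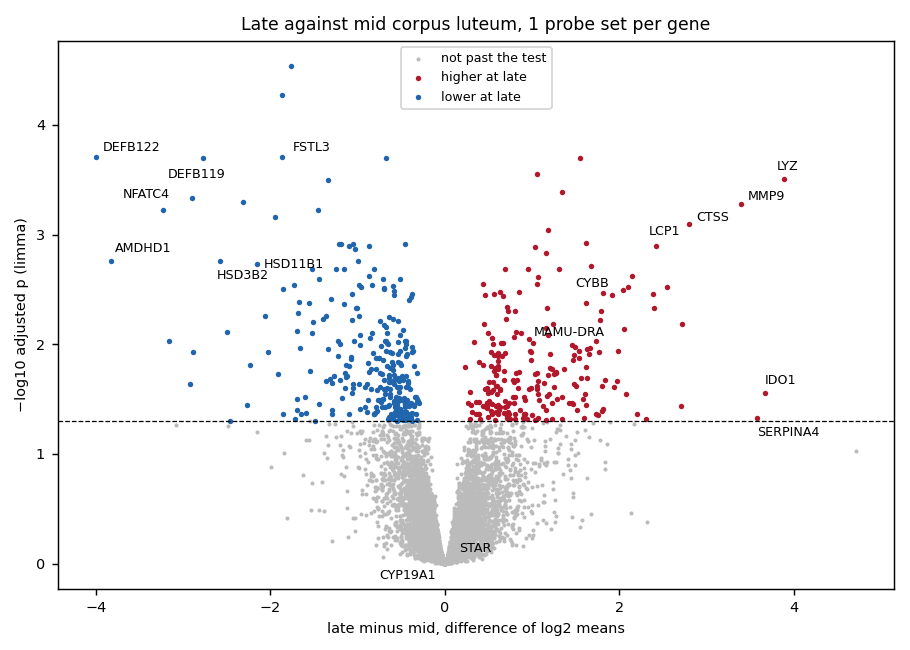
Difference between the late and mid stage means (log2, horizontal) against −log10 of the limma adjusted p (vertical), 1 point per gene for 14132 genes, with the dashed line at an adjusted p of 0.05. Red points (223) are higher and blue points (280) lower in the late gland. DEFB122 lies farthest left among the called genes and LYZ farthest right, while STAR and CYP19A1 lie near 0.

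The list of steroid synthesis enzymes and cofactors had 18 measured genes. Of these, 3 fell (16.7%, against 3.56% called among all genes), none rose and 15 did not pass the test. The median difference was -0.13. In the fit with the mitochondrial term none passed, and the median was -0.28. STAR, the rate-limiting carrier of cholesterol into mitochondria, read 13.17, 13.26, 13.40 and 13.20 in the mid arrays and 13.30, 13.38, 13.44 and 13.33 in the late arrays. The 2 groups overlapped, and the difference was 0.11 ± 0.38 (SE, adjusted p = 0.948). All 5 stages share 1 estimate of the spread, and without the very-late arrays, in which STAR scattered, the SE was 0.08 and the adjusted p 0.596. These readings lie near the top of the array's range, whose highest value was 14.28.

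HSD3B2, which completes progesterone synthesis, read 11.93, 11.77, 11.96 and 12.03 in the mid arrays. The late arrays read 7.67, 10.16, 9.98 and 9.57, all below the lowest mid array and with late replicate 1 lowest. The stage means, 11.92 ± 0.11 (SD, n = 4) and 9.35 ± 1.14, differed by -2.57 ± 0.37 (SE), 5.95-fold, with an adjusted p of 0.00174. HSD11B1, which interconverts cortisone and cortisol, read 11.70, 11.59, 11.96 and 11.09 in the mid arrays and 8.47, 9.90, 9.97 and 9.38 in the late arrays. The groups did not overlap, and HSD11B1 fell by 2.15 (SE 0.32, 4.45-fold, adjusted p = 0.00185). With the mitochondrial term HSD11B1 differed by -1.63 (adjusted p = 0.133). HSD17B8, a 17-beta-hydroxysteroid dehydrogenase, fell by 0.45 (SE 0.11, adjusted p = 0.0376), a call lost without any of 6 of the arrays compared (all but mid replicates 1 and 4), with adjusted p up to 0.120.

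CYP19A1 read 11.38, 9.95, 11.71 and 11.74 in the mid arrays and 10.03, 11.74, 11.85 and 11.44 in the late arrays. Each stage had 1 array more than 1 unit below its others, mid replicate 2 and late replicate 1, and the difference was 0.07 ± 0.47 (adjusted p = 0.975). Without mid replicate 2 it was -0.34, without late replicate 1 it was 0.48, and the 6 other leave-one-out values lay between those. CYP11B1, named for the adrenal enzyme that makes cortisol, had the largest difference of the list, -3.08 ± 0.81, and missed the threshold (adjusted p = 0.0548). Its mid arrays read 10.10, 6.66, 6.81 and 7.93 and its late arrays 4.18, 4.85, 5.33 and 4.83, so the groups did not overlap, with mid replicate 1 far above the others.

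**Figure D2:**
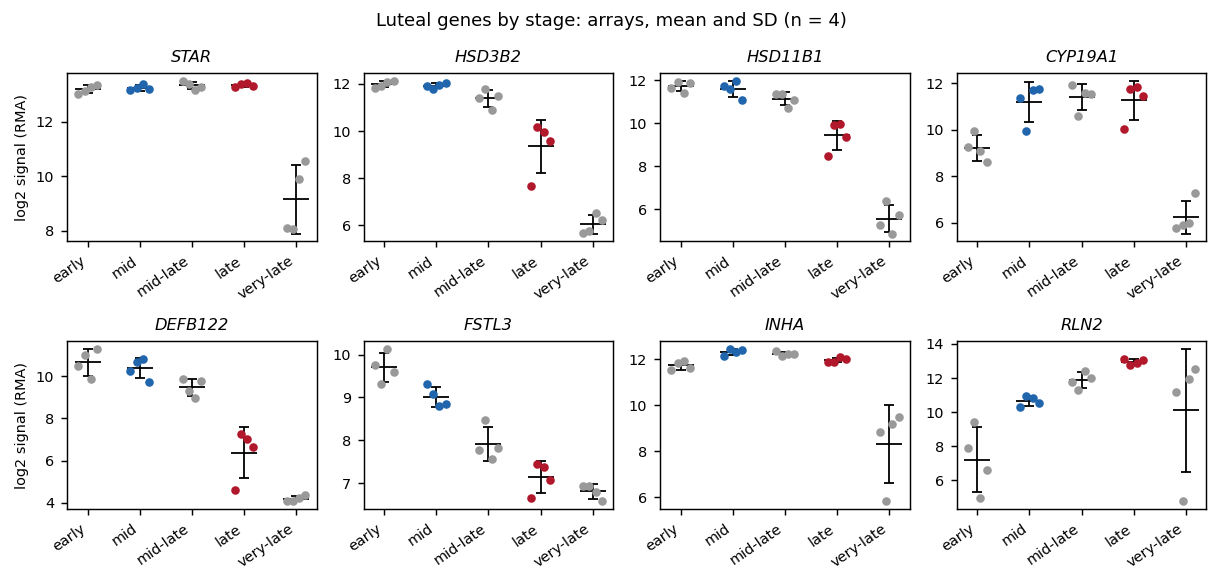
Log2 signal of 8 luteal genes in every array by stage, with the mean (long bar) and SD (short bars) of the 4 arrays, mid in blue, late in red and the other stages in grey. STAR and CYP19A1 overlap between mid and late, whereas HSD3B2, HSD11B1, DEFB122 and FSTL3 are lower and RLN2 higher in every late array than in any mid array.

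Transcription factors of steroidogenic cells gave no call among 20 measured by limma, 2 of them at an unadjusted p under 0.05. NR5A1 (SF-1), a master regulator of steroid enzyme genes, read 6.52 to 6.80 in the mid and 6.22 to 6.35 in the late arrays, a difference of -0.34 ± 0.15 (adjusted p = 0.281). NR5A2 (LRH-1), the related receptor that is abundant in the ovary, read 9.52 to 9.92 in the mid and 8.88 to 9.26 in the late arrays. The NR5A2 groups did not overlap, yet the difference of -0.66 ± 0.43 did not pass (adjusted p = 0.557), whereas a fit of the 8 arrays alone called it (adjusted p = 0.0147). The NR5A2 difference was -1.84 with the mitochondrial term (adjusted p = 0.114).

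Of the cholesterol synthesis enzymes, 13 were measured and none passed the test by limma (3 at an unadjusted p under 0.05), with 11 below 0 and a median of -0.38. SQLE, squalene epoxidase, had the largest difference of them, -0.83 ± 0.28 (adjusted p = 0.155), with overlapping groups. Among the genes of lipoprotein uptake and cholesterol transport, NPC1, which exports cholesterol from lysosomes, fell by 0.71 (SE 0.17, adjusted p = 0.0318). Its partner NPC2 rose by 0.63 (SE 0.14, adjusted p = 0.0263). These were the only calls among 12 (16.7%, against 3.56% of all genes). NPC1 read 10.60 to 11.03 in the mid and 9.82 to 10.38 in the late arrays, and NPC2 10.60 to 10.90 and 11.04 to 11.61, so neither pair of groups overlapped. Of the 12 cholesterol efflux genes and targets of the LXR sterol receptors, 16.7% were called, against 3.56% of all genes. LPCAT3, a phospholipid-remodelling enzyme, fell by 0.81 (SE 0.20, adjusted p = 0.0433). MYLIP, a ubiquitin ligase induced by the LXR receptors, rose by 0.63 (SE 0.15, adjusted p = 0.0398). ABCA1, the cholesterol efflux pump, was close to background with means of 3.62 and 3.85 and did not pass (adjusted p = 0.202). The calls of NPC1, NPC2, LPCAT3 and MYLIP were each lost in at least 5 of the 8 leave-one-out fits, with adjusted p up to 0.115.

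A pair of beta-defensins was among the largest falls. DEFB122, a beta-defensin of the epididymal cluster, read 10.26, 10.67, 10.83 and 9.75 in the mid arrays and 4.59, 7.25, 7.03 and 6.63 in the late arrays. Late replicate 1 was the lowest, no late array reached a mid array, and the fall of 4.00 (SE 0.44) was 16.0-fold (adjusted p = 0.000194, 2 of 3 probe sets called). DEFB119, a second beta-defensin, read 7.65, 6.38, 6.85 and 6.99 and then 3.79, 4.27, 4.73 and 4.02, a fall of 2.77 (SE 0.32, adjusted p = 0.000199) that brought it to within about 1 unit of background, and 1 of its 2 probe sets passed.

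AMDHD1, an enzyme of histidine breakdown, read 9.60, 7.76, 7.90 and 8.58 in the mid arrays and 4.59, 4.60, 4.93 and 4.41 in the late arrays. The mid arrays scattered and the late arrays did not, and AMDHD1 fell by 3.83 (SE 0.56, 14.2-fold, adjusted p = 0.00175). NFATC4, a calcium-regulated transcription factor, read 10.42, 8.66, 9.76 and 9.54 and then 6.65, 6.87, 6.66 and 6.57, and fell by 2.90 (SE 0.36, adjusted p = 0.000461, 1 of 2 probe sets called). The other members of the 12 largest falls were DAPL1 (-3.16), SLC17A4, a transporter of organic anions (-2.88), HSD3B2, NANOS1, an RNA-binding repressor of translation (-2.50), CRABP2, which carries retinoic acid (-2.46), OSGIN1, an oxidative-stress gene (-2.32), S100A2, a calcium-binding protein (-2.27), and INSM1, a zinc-finger repressor (-2.24). Their adjusted p-values ran from 0.000505 for OSGIN1 to 0.0497 for CRABP2, and in all 12 the groups did not overlap, which the choice of genes required. The calls of CRABP2 and S100A2 were each lost in 7 leave-one-out fits (all but without late replicate 1 for CRABP2 and mid replicate 3 for S100A2, adjusted p up to 0.139 and 0.0955) and that of INSM1 without late replicate 3 (adjusted p = 0.0530).

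Among hormone-like signals, the inhibin, activin and BMP list had 36 measured genes, of which 2 fell (5.56%, against 3.56% of all genes called) and none rose. FSTL3, a secreted protein that binds and blocks activin, read 9.31, 9.08, 8.79 and 8.85 in the mid arrays and 6.65, 7.45, 7.38 and 7.08 in the late arrays. Every late array was more than 1 unit below every mid array, and FSTL3 fell by 1.87 (SE 0.21, 3.65-fold, adjusted p = 0.000194). INHBB, the beta B subunit of inhibin and activin, fell by 0.52 (SE 0.11, adjusted p = 0.0216) from a mean of 4.26 to 3.74, near background, and its call was lost without mid replicate 1, late replicate 1 or late replicate 3 (adjusted p up to 0.0579). INHA, a major secreted product of the primate corpus luteum as part of inhibin A, read 12.12, 12.43, 12.32 and 12.38 in the mid arrays and 11.89, 11.89, 12.08 and 11.98 in the late arrays. The INHA groups did not overlap, and the difference of -0.35 ± 0.50 did not pass (adjusted p = 0.842), whereas without the very-late arrays it did (adjusted p = 0.0381).

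RLN2, relaxin, which the primate corpus luteum secretes, read 10.28, 10.94, 10.84 and 10.51 in the mid arrays and 13.14, 12.75, 12.86 and 13.08 in the late arrays. All late arrays were higher by more than 1 unit, a difference of 2.32, with SDs of 0.30 and 0.19. The shared SE was 1.20, taken over all 5 stages, of which the early and very-late arrays scattered widely, so RLN2 did not pass (adjusted p = 0.413). A fit of the 8 arrays alone called it (adjusted p = 0.000403), and with the mitochondrial term the difference was -0.40 (adjusted p = 0.965). In the insulin-like growth factor and relaxin list, IGF2R, which clears IGF2 and carries lysosomal enzymes, was the sole call among 18 (5.56%, against 3.56% of all genes). IGF2R read 8.88 to 9.37 in the mid and 9.60 to 9.79 in the late arrays and rose by 0.65 (SE 0.12, adjusted p = 0.00978).

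PGR, the progesterone receptor, read 3.58 to 4.38 in the mid arrays and 3.20 to 3.51 in the late arrays, a late mean below background, and fell by 0.55 (SE 0.13, adjusted p = 0.0360). FKBP5, a co-chaperone that steroid receptors induce, read 5.21, 4.38, 6.11 and 5.84 and then 3.53, 3.92, 4.02 and 4.01, and fell by 1.52 (SE 0.27, 2.86-fold, adjusted p = 0.00627). Those were the 2 calls (14.3%, against 3.56% of all genes) among 14 receptors of steroids, prolactin and growth hormone and their co-chaperones. In the gonadotropin and cyclic AMP list of 30, 6.67% were called, against 3.56% of all genes. RGS2, which damps G-protein signalling, fell by 1.91 (SE 0.40, adjusted p = 0.0185). PDE7B, which breaks down cyclic AMP, rose by 0.94 (SE 0.24, adjusted p = 0.0477). RGS2 read 11.17, 11.18, 11.30 and 10.48 in the mid arrays and 8.30, 10.20, 8.82 and 9.16 in the late arrays, without overlap. The PDE7B call was lost in every leave-one-out fit (adjusted p up to 0.135), those of PGR and RGS2 in 6 and 5 of 8 (up to 0.102 and 0.0678). WNT3, a secreted WNT ligand, fell by 0.35 (SE 0.09, adjusted p = 0.0368), a call lost in 7 leave-one-out fits (adjusted p up to 0.106). It was the sole call among 30 WNT genes (3.33%, near the 3.56% of all genes).

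Of the antioxidant, glutathione and metallothionein genes, 29 were measured, 2 fell and 1 rose (10.3% called, against 3.56% of all genes). MT2A, a metallothionein that binds zinc and copper, read 13.24, 13.04, 12.96 and 12.77 in the mid arrays and 10.05, 11.87, 11.79 and 11.53 in the late arrays. The groups did not overlap, and MT2A fell by 1.69 (SE 0.31, 3.23-fold, adjusted p = 0.00764). GSTM3, a glutathione transferase, read 10.77 to 11.38 in the mid and 8.99 to 9.66 in the late arrays and fell by 1.69 (SE 0.41, adjusted p = 0.0398). SOD2, the superoxide dismutase of mitochondria, rose by 0.92 (SE 0.23, adjusted p = 0.0433) in 1 of 2 probe sets, and their mean differed by 0.16 (adjusted p = 0.769). The GSTM3 call was lost in all 8 leave-one-out fits (adjusted p up to 0.112) and that of SOD2 in 7 (all but without late replicate 1, adjusted p up to 0.145).

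ACADM, which starts the breakdown of medium-chain fatty acids, fell by 0.73 (SE 0.14, adjusted p = 0.0104) from 10.01 to 10.42 in the mid arrays to 9.35 to 9.74 in the late arrays. ETFB, which takes electrons from such enzymes, fell by 0.51 (SE 0.09, adjusted p = 0.00823), and these were the 2 calls (12.5%, against 3.56% of all genes) among 16 fatty acid oxidation and citrate cycle genes. Of 40 nuclear-encoded subunits of the respiratory chain and ATP synthase, ATP5F1D was the sole call (2.5%, below the 3.56% of all genes). ATP5F1D fell by 0.55 (SE 0.13, adjusted p = 0.0310), a call lost in 7 leave-one-out fits. Of the 40 differences, 30 were below 0, and the median was -0.12. PSMD8, a proteasome subunit, fell by 0.45 (SE 0.12, adjusted p = 0.0491), a call lost in every leave-one-out fit (adjusted p up to 0.114). It was the sole call among 22 proteasome subunits (4.55%, near the 3.56% of all genes).

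Of 22 DNA replication and mitosis genes, 4 fell in the late gland (18.2%, against 3.56% called among all genes), none rose, 18 did not pass the test, 20 had differences below 0, and the median was -0.34. CCNB1, the cyclin that drives entry into mitosis, read 5.94, 6.78, 6.62 and 6.14 in the mid arrays and 4.45, 4.83, 5.13 and 5.00 in the late arrays. The groups did not overlap, and CCNB1 fell by 1.52 (SE 0.23, 2.87-fold, adjusted p = 0.00206). TOP2A, which untangles replicated DNA, read 7.57, 8.66, 7.87 and 7.37 and then 6.24, 6.51, 6.76 and 5.89, and fell by 1.52 (SE 0.28, adjusted p = 0.00783). CCNB2, a second mitotic cyclin, fell by 0.97 (SE 0.24, adjusted p = 0.0391) and RRM1, a subunit of ribonucleotide reductase, by 0.56 (SE 0.14, adjusted p = 0.0409), both calls lost in 6 leave-one-out fits (adjusted p up to 0.116 and 0.124). MKI67, the proliferation antigen, did not pass (-0.59 ± 0.26, adjusted p = 0.294), with mid replicate 2 at 6.47 and the other 7 arrays at 4.82 to 5.39. The list kept 2 to 4 calls in the leave-one-out fits and had 7 without the very-late arrays. The lower number came without mid replicate 2 or 3 or late replicate 1, 2 or 3. With the mitochondrial term none passed, and the median was -0.41.

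HBB, adult beta-globin, read 7.20, 7.63, 7.70 and 7.75 in the mid arrays and 6.59, 6.35, 6.42 and 6.12 in the late arrays, a fall of 1.20 (SE 0.26, adjusted p = 0.0210) without overlap. ALAS2, the red-cell enzyme of heme synthesis, fell by 0.53 (SE 0.12, adjusted p = 0.0311), so 2 of 3 erythrocyte markers fell (66.7%, against 3.56% of all genes called) and the third did not pass. Each of those calls was lost in 6 of the 8 leave-one-out fits, with adjusted p up to 0.0719 and 0.0794. The log2 of the summed signal of those 3 markers ran from 7.74 to 8.31 in the mid and from 6.98 to 7.25 in the late arrays. In whole-gland RNA, fewer cells of a type and less RNA per cell cannot be told apart, and this holds for every marker list here.

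Monocyte and macrophage genes were higher in the late gland: 6 of 8 measured markers rose (75.0%, against 3.56% of all genes called), none fell and the median difference was 1.41, against -0.01 over all genes. CYBB, the catalytic subunit of the phagocyte oxidase, read 5.46, 4.85, 5.22 and 4.53 in the mid arrays and 6.44, 7.19, 7.24 and 7.34 in the late arrays. No late array overlapped the mid arrays, late replicate 1 was the lowest, and CYBB rose by 2.04 (SE 0.33, 4.11-fold, adjusted p = 0.00321). CD14, the co-receptor for bacterial endotoxin, read 7.14, 7.38, 7.42 and 6.92 and then 7.86, 8.85, 9.05 and 8.92, and rose by 1.46 (SE 0.35, adjusted p = 0.0346). CD68, a lysosomal glycoprotein of macrophages, read 7.58, 7.01, 6.85 and 6.64 and then 7.81, 8.20, 8.24 and 8.55, a rise of 1.18 (SE 0.27, adjusted p = 0.0294). The other rises were of AIF1, an actin-binding protein of activated macrophages (1.82), TYROBP, a signalling adaptor (1.54), and CSF1R, the receptor for the macrophage growth factor (1.37). All 6 had non-overlapping groups, as 14.7% of all genes did. The calls of CD14 and AIF1 were lost in 7 leave-one-out fits (all but without late replicate 1, adjusted p up to 0.111 and 0.114), that of CD68 in 6, those of CSF1R and TYROBP in 2 and 1 (up to 0.0642 and 0.0523), and that of CYBB in none.

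The remaining markers, the scavenger receptor MSR1 and the mannose receptor MRC1, did not pass, with differences of 0.05 and -0.17. MSR1 was within 1 unit of background in both stages, at means of 3.99 and 4.04, while MRC1 averaged 7.90 and 7.73. MRC1 depended on the probe set: the mean over its 3 probe sets differed by 0.53 in the other direction. The log2 of the summed signal of all 8 markers ran from 9.44 to 9.95 in the mid and from 10.55 to 11.24 in the late arrays. The marker count was 6 without late replicate 1, 4 without mid replicate 1, 3 without mid replicate 2, 3 or 4 or late replicate 2, 2 without late replicate 3 and 1 without late replicate 4. With the mitochondrial term none passed, and the median was 1.24.

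**Figure D3:**
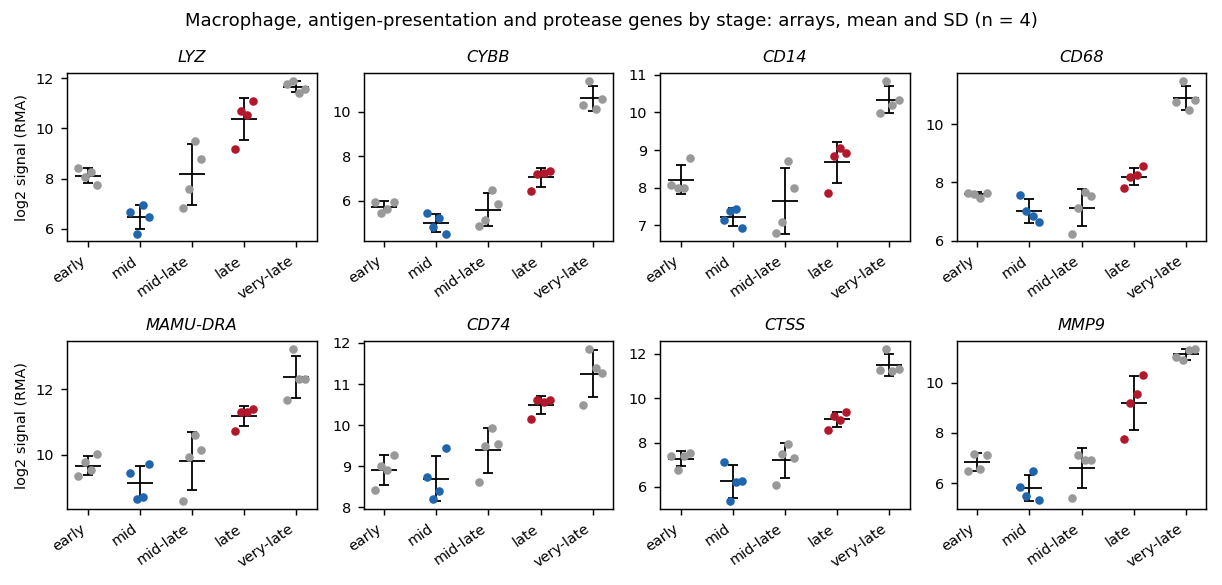
Log2 signal of 8 macrophage, antigen-presentation and protease genes in every array by stage, with the mean (long bar) and SD (short bars) of the 4 arrays, mid in blue, late in red and the other stages in grey. Every late array lies above every mid array in all 8 genes, and late replicate 1, the leftmost red point, is the lowest late array in each.

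Of 17 antigen presentation genes, 9 rose (52.9%, against 3.56% of all genes called) and none fell, with a median of 0.99. MAMU-DRA, the alpha chain of a macaque MHC class II molecule, read 9.43, 8.66, 8.71 and 9.71 in the mid arrays and 10.72, 11.31, 11.29 and 11.39 in the late arrays. Late replicate 1 was the lowest of the late arrays and still above all mid arrays, and MAMU-DRA rose by 2.05 (SE 0.37, 4.14-fold, adjusted p = 0.00726). MAMU-DQA1, a second class II alpha chain, rose by 2.40 (SE 0.41, adjusted p = 0.00462), and MAMU-DMA, which loads peptide onto class II molecules, by 2.14 (SE 0.33, adjusted p = 0.00238). CD74, the invariant chain that chaperones class II molecules, read 8.73, 8.20, 8.39 and 9.45 and then 10.15, 10.62, 10.57 and 10.60, and rose by 1.79 (SE 0.31, adjusted p = 0.00496). CIITA, the master regulator of class II genes, did not pass (-0.09, means of 4.36 and 4.28). MHC genes are polymorphic and near-identical copies share probes, so a signal named for 1 locus can hold others.

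The remaining calls of that list were CTSS, IFI30, PSMB8, MAMU-B and B2M. CTSS, cathepsin S, which trims the invariant chain, read 7.14, 5.34, 6.24 and 6.25 in the mid arrays and 8.57, 9.20, 9.03 and 9.37 in the late arrays. The groups were more than 1 unit apart, and CTSS rose by 2.80 (SE 0.37, 6.98-fold, adjusted p = 0.000804) with all 4 of its probe sets called. IFI30, a lysosomal reductase that unfolds antigens, rose by 1.91 (SE 0.31, adjusted p = 0.00357), and PSMB8, an immunoproteasome subunit, by 1.62 (SE 0.33, adjusted p = 0.0162), a call lost without late replicate 2, 3 or 4 (adjusted p up to 0.0663). MAMU-B, a class I heavy chain, rose by 1.01 (SE 0.19, adjusted p = 0.00965) in 1 of 2 probe sets. Their mean differed by 0.38 (adjusted p = 0.0707), and MAMU-B differed by 0.55 with the mitochondrial term (adjusted p = 0.413). B2M, the class I light chain, rose by 0.29 (SE 0.07, adjusted p = 0.0476, lost in every leave-one-out fit). The list kept 7 or 8 calls in each leave-one-out fit. With the mitochondrial term 1 gene, CTSS, passed, and the median was 1.11.

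LYZ, lysozyme, which macrophages and neutrophils secrete, had the largest rise among the genes that passed the test. It read 6.69, 5.81, 6.94 and 6.48 in the mid arrays and 9.16, 10.68, 10.53 and 11.10 in the late arrays. The groups were separated by more than 2 units, and the rise of 3.89 (SE 0.46) was 14.8-fold (adjusted p = 0.000309). MMP9, gelatinase B, which degrades basement-membrane collagen, read 5.86, 5.51, 6.51 and 5.33 and then 7.75, 9.20, 9.54 and 10.29. MMP9 rose by 3.39 (SE 0.43, 10.5-fold, adjusted p = 0.000522), with late replicate 1 the lowest late array. Of 28 metalloproteinases, their inhibitors and plasminogen system genes, MMP16, a membrane-bound metalloproteinase near background, was the other call (0.32, adjusted p = 0.0417, lost in 6 leave-one-out fits), which makes 7.14% called against 3.56% of all genes, and TIMP1, the main secreted inhibitor, did not pass (-0.12 ± 0.07, adjusted p = 0.487).

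The other members of the 12 largest rises included leukocyte genes. ACP5, an acid phosphatase of macrophages and osteoclasts, read 6.12, 5.76, 6.32 and 4.97 and then 7.07, 8.43, 8.55 and 9.98, and rose by 2.71 (SE 0.49, adjusted p = 0.00650). LCP1, an actin-bundling protein of leukocytes, read 5.99 to 6.45 in the mid and 7.86 to 9.01 in the late arrays and rose by 2.42 (SE 0.34, adjusted p = 0.00127). DOCK8, which controls leukocyte migration, was at 3.43 to 3.86 in the mid arrays, near background, and at 4.71, 6.49, 6.56 and 6.68 in the late arrays, a rise of 2.55 (SE 0.40, adjusted p = 0.00304) seen in 1 of its 5 probe sets. PLA2G2D, a secreted phospholipase, was at 3.80 to 4.07 in the mid and at 4.96, 6.19, 6.93 and 7.23 in the late arrays, a rise of 2.38 (SE 0.39, adjusted p = 0.00350).

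SERPINA4, kallistatin, a secreted protease inhibitor, read 5.16, 7.52, 8.40 and 8.39 in the mid arrays and 10.50, 11.31, 11.12 and 10.85 in the late arrays. Its mid arrays scattered, with replicate 1 lowest, and the rise of 3.58 (SE 0.91, adjusted p = 0.0471) was lost in every leave-one-out fit (adjusted p up to 0.139) and was 1.58 with the mitochondrial term. PLXDC2, a receptor-like membrane protein, rose by 2.31 (SE 0.58, adjusted p = 0.0477), a call lost in 7 leave-one-out fits (all but without mid replicate 4, adjusted p up to 0.132) and a difference of 0.37 with the mitochondrial term.

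Interferon-responsive genes had higher late means, and most of them did not pass the test. All 23 measured genes had differences above 0, with a median of 0.80, and 2 passed (8.70%, against 3.56% of all genes, and 12 at an unadjusted p under 0.05). GBP1, a guanylate-binding protein, read 5.21, 4.92, 5.20 and 6.66 in the mid arrays and 6.16, 9.03, 8.88 and 8.74 in the late arrays. Late replicate 1 lay below mid replicate 4, so the groups overlapped, and the rise was 2.71 (SE 0.65, adjusted p = 0.0369). BST2, tetherin, which holds budding viruses at the cell surface, rose by 0.80 (SE 0.19, adjusted p = 0.0302), also with overlap. Outside that list, IDO1, which breaks down tryptophan, read 4.48, 4.88, 4.47 and 5.23 and then 5.99, 9.39, 9.28 and 9.08, a rise of 3.67 (SE 0.84, 12.7-fold, adjusted p = 0.0281), and PLAAT4, a phospholipid-metabolising enzyme, rose by 2.21 (SE 0.55, adjusted p = 0.0430). In GBP1, IDO1 and PLAAT4, late replicate 1 was more than 1 unit below the other late arrays. The interferon list had 3 calls without late replicate 1, 4 without mid replicate 4 and 5 without the very-late arrays. It had none without any of the 6 other mid and late arrays. With the mitochondrial term none passed, and the median was 0.56. The calls of GBP1, IDO1 and BST2 were lost without mid replicate 1, 2 or 3 or late replicate 2, 3 or 4 (adjusted p up to 0.117, 0.0939 and 0.103), and PLAAT4 also without mid replicate 4 (up to 0.134).

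Of 16 complement components and receptors, 4 rose (25.0%, against 3.56% of all genes called) and none fell, with a median of 0.61. C1QC and C1QB, chains of the recognition molecule C1q, rose by 1.81 (SE 0.44, adjusted p = 0.0403) and 1.76 (SE 0.44, adjusted p = 0.0437), and the third chain, C1QA, differed by 1.65 and did not pass (adjusted p = 0.0703). C1S, the protease of the C1 complex, read 8.85, 7.75, 8.32 and 9.03 in the mid arrays and 9.63, 10.33, 10.29 and 10.36 in the late arrays and rose by 1.66 (SE 0.32, adjusted p = 0.0108). CFB, factor B of the alternative pathway, rose by 1.21 (SE 0.24, adjusted p = 0.0123) in 1 of 3 probe sets. Their mean differed by 0.38 (adjusted p = 0.302), and CFB differed by 0.80 with the mitochondrial term (adjusted p = 0.396). CD55, which protects cells from complement, had the list's lowest difference, -1.05, and did not pass (adjusted p = 0.0553). The calls of C1QB and C1QC were lost in all leave-one-out fits but that without mid replicate 1 (adjusted p up to 0.112 and 0.106). The list had 4 calls without mid replicate 1 and 2 without any of the other 7 arrays, and none with the mitochondrial term.

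Of 24 lysosome and autophagy genes, 5 rose, 1 fell (25.0% called, against 3.56% of all genes) and the median was 0.16. Beside CTSS, they were CTSK, cathepsin K, which degrades collagen (1.81 ± 0.40, adjusted p = 0.0240), MAN2B1, a mannosidase (0.80 ± 0.14, adjusted p = 0.00501), CTSH, cathepsin H (0.69 ± 0.17, adjusted p = 0.0373), and SQSTM1, an autophagy receptor (0.55 ± 0.12, adjusted p = 0.0260). GAA, which breaks down glycogen in lysosomes, fell by 0.63 (SE 0.14, adjusted p = 0.0301). The call of GAA was lost in 7 leave-one-out fits (all but without mid replicate 3, adjusted p up to 0.101), those of CTSH and SQSTM1 in 6 (up to 0.129 and 0.0809) and that of CTSK in 4 (up to 0.0826). The list kept 2 to 5 rises in the leave-one-out fits, with 2 without mid replicate 4, late replicate 3 or late replicate 4.

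In the lists of chemokines and their receptors, apoptosis genes, TNF superfamily genes, and immediate-early and stress genes, 1 gene each was called, 3.70%, 4.55%, 4.35% and 4% of those measured, against 3.56% of all genes. These shares were near that of all genes, and the 4 genes are given for their own values. CCL3, a chemokine that attracts leukocytes, read 4.71, 4.38, 4.72 and 4.54 in the mid arrays and 6.19, 6.26, 5.98 and 6.44 in the late arrays. The groups were more than 1 unit apart, and CCL3 rose by 1.63 (SE 0.35, adjusted p = 0.0204), in 1 of its 4 probe sets, whose mean differed by 0.53 (adjusted p = 0.198). CASP4, an inflammatory caspase, rose by 0.82 (SE 0.17, adjusted p = 0.0184). TNFSF11 (RANKL), the osteoclast-differentiation ligand, stood at 3.50 to 3.58 in the mid arrays and at 3.55, 4.18, 4.37 and 4.84 in the late arrays, a rise of 0.69 (SE 0.16, adjusted p = 0.0327) with overlap at late replicate 1. KLF4, a zinc-finger transcription factor, rose by 0.80 (SE 0.19, adjusted p = 0.0344). CD4, which T cells and monocytes carry, rose by 1.03 (SE 0.26, adjusted p = 0.0488). It was the sole call among 5 T and NK cell markers (20%, against 3.56% of all genes), with 3 differences above 0 and 2 below. The log2 of their summed signal overlapped, from 11.94 to 12.60 in the mid and from 11.91 to 12.18 in the late arrays. The calls of CD4, TNFSF11 and KLF4 were lost in 8, 7 and 5 of the 8 leave-one-out fits (adjusted p up to 0.127, 0.101 and 0.114), and those of CCL3 and CASP4 in 3 each (up to 0.0669 and 0.0694).

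The endothelial, pericyte and fibroblast marker lists gave no call. At the 3.56% called among all genes, lists this short would hold few or none, so this does not show unchanged levels. None of 13 endothelial markers passed by limma (1 at an unadjusted p under 0.05), their differences lay between -0.07 and 0.36, and the log2 of their summed signal ran from 11.92 to 12.35 in the mid and from 12.11 to 12.36 in the late arrays. PECAM1, a junction protein of endothelial cells, differed by 0.24 ± 0.15 (adjusted p = 0.509) and KDR, the main VEGF receptor, by 0.14 ± 0.25 (adjusted p = 0.888), and both were below 0 with the mitochondrial term. None of 23 angiogenic ligands, receptors and hypoxia genes, 6 pericyte markers, 12 prostaglandin genes or 6 fibroblast markers passed by limma, with 1, 0, 2 and 3 at an unadjusted p under 0.05. The 6 fibroblast markers all had differences above 0 (median 0.43), and the log2 of their summed signal ran from 12.84 to 13.37 in the mid and from 13.49 to 13.87 in the late arrays. DCN, decorin, a collagen-binding proteoglycan, had the largest of these differences (1.41 ± 0.45, adjusted p = 0.125), and COL1A1, a chain of type I collagen, differed by 0.32 ± 0.24 (adjusted p = 0.633). Of 20 collagen chains, COL18A1, a basement-membrane chain, fell by 0.79 (SE 0.19, adjusted p = 0.0376) and COL5A3, a type V chain, by 0.63 (SE 0.13, adjusted p = 0.0166), 10% called against 3.56% of all genes. These calls were lost in 6 and 3 of the 8 leave-one-out fits (adjusted p up to 0.113 and 0.0530).

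**Figure D4:**
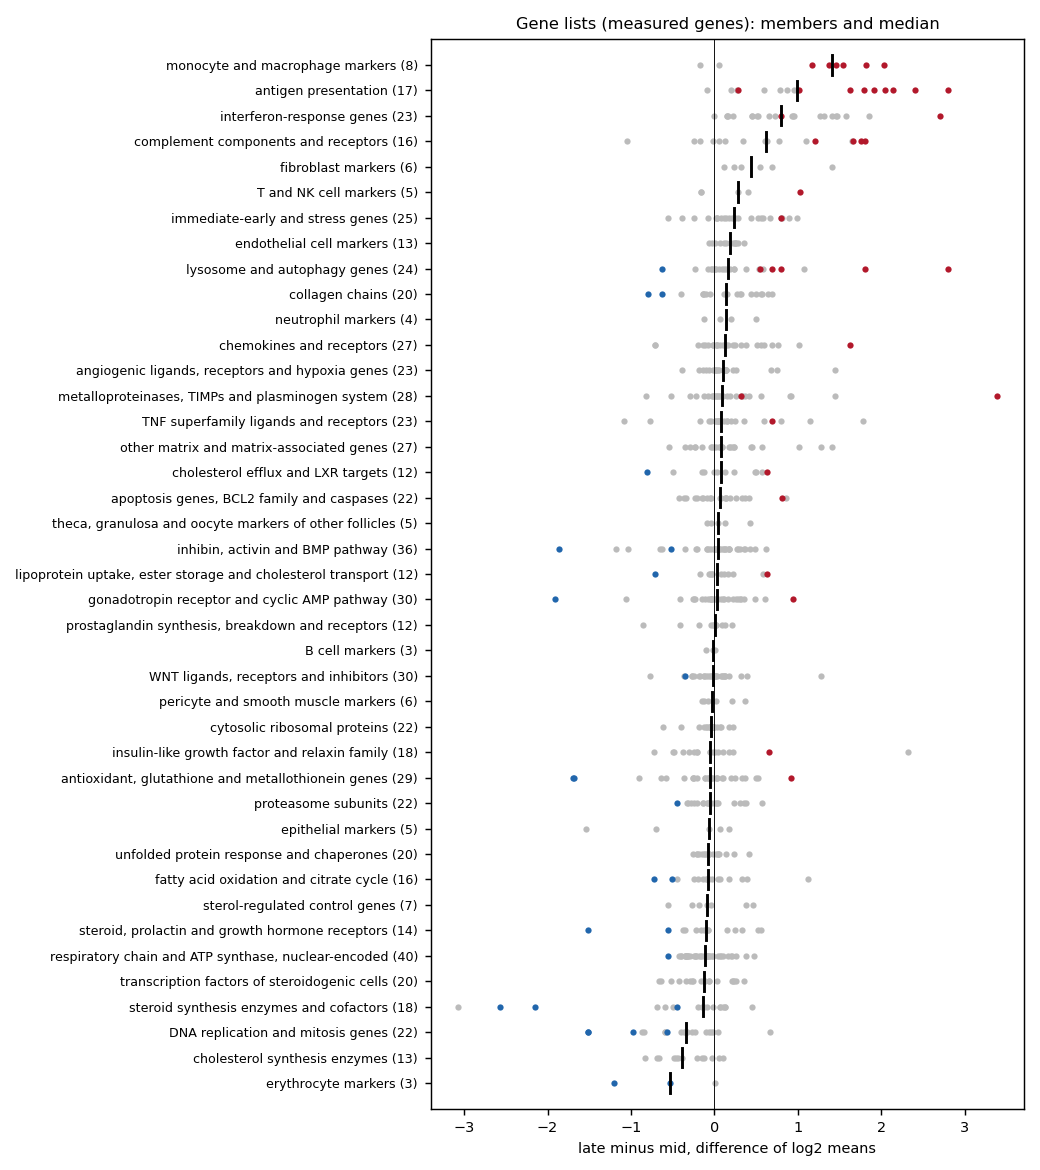
Difference between the late and mid stage means (log2) for each measured gene of 41 lists, 1 row per list with the number of measured genes in brackets. Red points passed the test higher and blue points lower in the late gland, grey points did not pass, and the black bar is the list's median. The macrophage (median 1.41) and antigen presentation (0.99) lists stand at the top, and the erythrocyte list (-0.53) at the bottom.

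Several probe sets stood for 57 of the 102 called genes with values in the text. With their mean in place of the brightest, all 57 kept their direction, 10 no longer passed the test, and another 21 passed with a difference smaller by over 1.5 times. Beside SOD2, MAMU-B, CFB and CCL3, the calls lost were of INHBB (-0.32, adjusted p = 0.136), SQSTM1 (0.39, adjusted p = 0.0624), WNT3 (-0.09, adjusted p = 0.475), MMP16 (0.19, adjusted p = 0.284), PLXDC2 (1.76, adjusted p = 0.0548) and the leukocyte integrin ITGB2 (0.68, adjusted p = 0.0835). Among those that passed, the mean was -1.55 for DEFB122, -1.36 for NFATC4, -1.15 for OSGIN1, -0.87 for GSTM3, -0.39 for COL18A1, -0.34 for ALAS2 and for RRM1. Upward it was 1.13 for CYBB, 0.97 for AIF1, 0.64 for CD68, 0.74 for DOCK8, 1.09 for PLAAT4 and 1.76 for SERPINA4.

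The mid-late arrays, from days 10 to 12, give the step between the 2 stages. A contrast that asks whether the change before the mid-late stage differed from the change after it called none of the 52707 probe sets by limma (1804 at an unadjusted p under 0.05, and 2 with array weights). Taken alone, each step called 6 probe sets (0.0114%). HSD3B2 averaged 11.40 in the mid-late arrays, a difference of -0.52 from mid (adjusted p = 0.879), and then differed by -2.05 from mid-late to late (adjusted p = 0.0816). DEFB122 differed by -0.91 before (adjusted p = 0.769) and fell by 3.10 after the mid-late stage (adjusted p = 0.0307). FSTL3 differed by -1.10 and then -0.77, and LYZ by 1.70 and then 2.19, with none of these 4 steps past the test. TNFSF11 stood at 3.55 in the mid-late arrays, as in the mid arrays, and differed by 0.68 in the second step (adjusted p = 0.218).

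Adding the term for mitochondrial signal to the fit left 103 probe sets (28 higher, 75 lower) and 43 genes past the test. Of those 43 genes, 39 were among the 503 and had the same direction. All 503 kept their sign, 443 had an unadjusted p under 0.05, the median size of the difference went from 0.75 to 0.68, and the median SE from 0.16 to 0.21. Of the 102 called genes with values in the text, 13 passed in both fits. Upward they were LYZ (3.22, adjusted p = 0.0426), CTSS (2.75, adjusted p = 0.0442), PLA2G2D (2.81, adjusted p = 0.0426) and SQSTM1 (0.81, adjusted p = 0.0365). Downward they were DEFB122 (-3.60, adjusted p = 0.0252), DEFB119 (-2.62, adjusted p = 0.0252), NFATC4 (-2.71, adjusted p = 0.0422), FSTL3 (-1.92, adjusted p = 0.0141), GSTM3 (-2.65, adjusted p = 0.0327), and the kinase gene HIPK2, AFF2, UGP2 and NPR3 (adjusted p = 0.00829, 0.00711, 0.0172 and 0.0252). HSD3B2 just missed, at -2.63 (adjusted p = 0.0512). The difference was smaller by over 1.5 times in 19 of the 102 genes, none of which passed with the term, and larger by as much in GSTM3 and NPR3. Beside SERPINA4, PLXDC2, MAMU-B and CFB, the 19 were AMDHD1 (-2.32), SLC17A4 (-1.34), RGS2 (-1.12), PPIF (-0.78), HBB (-0.66), NPC1 (-0.42), INHBB (-0.34), ALAS2 (-0.31) and PSMD8 (-0.27) downward. Upward they were C1QC (1.05), C1QB (0.97), CD4 (0.55), NPC2 (0.41), MLKL (0.35) and MYLIP (0.30), with adjusted p-values of the 19 from 0.133 for AMDHD1 to 0.879 for PLXDC2. The 7 low arrays hold all 4 mid arrays, and the 13 high arrays hold all 4 late arrays. No comparison of mid with late within a group of arrays was therefore possible. Each stage had its own mean in the fit, so the mid and late arrays did not set the size of the term. The term rests on the other stages, in which low and high arrays occurred together. The only low array of the early stage read 7.02, that of the mid-late stage 8.12 and that of the very-late stage 7.22.

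**Figure D5:**
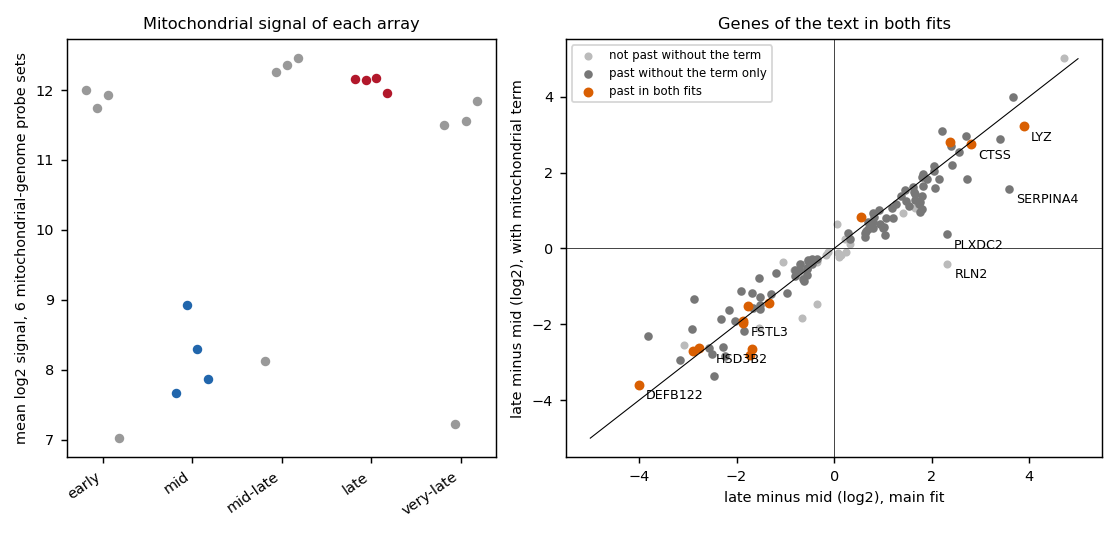
Left, the mean log2 signal of 6 mitochondrial-genome probe sets in each array by stage, where the 4 mid arrays (blue, 7.67 to 8.93) lie below the 4 late arrays (red, 11.96 to 12.17). Right, the late minus mid difference (log2) of each gene with values in the text, without (horizontal) and with (vertical) the term for that signal, with the line of equality. Orange genes passed the test in both fits, and RLN2 and PLXDC2 lie far below the line.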

How the data were processed

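Total RNA of 20 corpora lutea was measured on Affymetrix rhesus arrays, each gland on its own array. The deposited values are log2 signals that the authors computed by RMA, according to the submitters' processing notes; the RMA version, probe-set definitions and filters are not given in the sources used here. They were used as they stand, between 2.48 and 14.28, and each array column was matched to its sample by name. RMA gives all arrays 1 distribution, so a shift of all genes together would not be seen.

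Of 52865 probe sets, 158 controls were left out and 52707 tested. Names came from the platform's annotation through gene identifiers: 24956 probe sets had 1 symbol, 361 several and 27390 none. For a gene with several probe sets, the brightest on average over the series was used. The limma package (3.58.1, R 4.3.3) estimated 5 stage means from the 20 arrays (15 residual degrees of freedom) and tested late minus mid and the timing contrast, two-sided, with Benjamini-Hochberg adjustment over all probe sets. The number of arrays limits the precision. The fit was checked on simulated data. Single values per array were tested by exact permutation over 70 splits. Arrays were divided into a low group of 7 and a high group of 13 at the widest gap in the mean of all 6 mitochondrial-genome probe sets.

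The genes named were the 12 largest rises and the 12 largest falls that passed the test, changed at least 2-fold and did not overlap between stages; up to 4 members of each of 41 lists by the same threshold, or else up to 2 that passed the test; and 27 fixed genes, of which 20 had a value and the others are not reported here. Of 1018 genes listed, 711 were measured. Other genes were named after their values were seen. The members and lists were chosen with earlier results of these data known. Alternatives changed the scaling, the filter on dim probe sets (mean under 1 unit above background in every stage), the variance prior, the weight of each array, a block for the replicate number, the arrays in the fit, the mitochondrial term, the threshold and the probe set that stands for a gene. Replicate numbers are shared by title alone. Deviations of same-numbered mid and late arrays correlated at -0.09 to 0.14, and those of other numbers at -0.21 to 0.21. The main fit did not pair the arrays by number. So few values cannot exclude a link between same-numbered arrays.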

Additional observations from a re-analysis of the deposited data

Results flagged for a closer look

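In 29 of 256 groups of 4 arrays (11.3%), 1 array lay apart from the other 3 by more than Dixon's critical value for the gap over the group's range. That value is set for about 1 in 20 independent groups. The groups here share the same arrays, and many of the genes were chosen by their values, so 11.3% cannot be judged against that rate. Late replicate 1 was the array apart in 17 of the 29 groups, and its values are given first.

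Late replicate 1 was lower than the other late arrays in immune genes: IDO1 at 5.99, GBP1 at 6.16, PLAAT4 at 4.20, DOCK8 at 4.71, CD14 at 7.86, CYBB at 6.44, CD74 at 10.15, MAMU-DRA at 10.72, MAMU-B at 13.33, C1S at 9.63 and PTPRC, the pan-leukocyte phosphatase, at 5.72. It was also lower in INHBB at 3.60 and in MBLAC2, an esterase-like hydrolase, at 5.83. It was higher than the others in GNLY, granulysin of cytotoxic lymphocytes, at 7.83, the epithelial keratin KRT8 at 5.69, the serotonin receptor HTR2B at 7.96 and LPL, lipoprotein lipase, at 6.16. Without this array 1016 probe sets were called, 604 higher and 412 lower, against 563 and 580 with it.

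Late replicate 4 was higher than the other late arrays in TYROBP at 9.53, GPNMB, a glycoprotein of lipid-laden macrophages, at 10.86, and LPCAT3 at 8.03. Its mean of mitochondrial-genome probe sets, 11.96, was the lowest late value.

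Among the mid arrays, replicate 4 was high in DOCK8 at 3.86 and GBP1 at 6.66 and low in RGS2 at 10.48. Replicate 2 was high in PECAM1 at 9.77 and in the actin difference between 3' and 5' probe sets at 0.973, and low in SOD2 at 7.26. Replicate 1 was low in PDE7B at 3.96 and high in MBLAC2 at 5.61.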

How the results depend on the processing

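The counts of called probe sets and genes were 1143 and 503. They stayed within 1.5 times of this under cyclic loess, median centring, a trended and robust prior and the filter on dim probe sets. So did the average over all probe sets of a gene (711 genes), with p-values adjusted over genes and not over probe sets. With a replicate block, in which same-numbered arrays were treated as pairs although they deviate no more alike than others, the counts were 1001 and 432. They were 2048 and 894 with array weights, 1900 and 845 with the 8 arrays alone, 2233 and 980 without the very-late arrays, 2148 and 947 without very-late replicates 1 and 2, 103 and 43 with the mitochondrial term, 304 and 142 at an adjusted p under 0.01, and 403 and 186 at 2-fold or more. Leaving out 1 mid or late array gave 488 to 1016 probe sets and 230 to 426 genes. Of the 503 genes, 501 were called without the very-late arrays and 412 with the 8 arrays alone. The timing contrast had 0 calls, 2 with array weights and 0 to 1 in leave-one-out fits. Over 124 genes and 2598 gene-by-alternative values, 1970 kept their direction and side of the threshold, 578 lost the call, 38 gained it and 12 turned sign, all in genes that had not passed. With the mitochondrial term CYP19A1 was -0.13, KDR -0.18, PECAM1 -0.095, RLN2 -0.40 and STAR -0.23. With the mean of the probe sets MRC1 was 0.53 and TIMP1 0.12. Leaving out 1 array gave CYP19A1 -0.34 to 0.48, KDR -0.089 to 0.42 and MSR1 -0.038 to 0.11. The cause of these shifts was not tested. Genes near the background of 3.42, such as PGR, INHBB and WNT3, have little signal to fall from.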

Other observations

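The genes in this section were chosen after their values were seen. HIPK2 and AFF2 had the smallest adjusted p-values among the genes of the comparison, and UGP2 was also lower in the late gland. HIPK2, a nuclear kinase of stress and transcription control, read 10.59, 9.85, 10.01 and 10.28 in the mid arrays and 8.21, 8.59, 8.51 and 8.39 in the late arrays, and fell by 1.76 (SE 0.16, limma adjusted p = 2.88e-05) with 6 of its 7 probe sets called. AFF2, a nuclear protein of the AF4 family, read 5.17, 5.24, 4.68 and 5.62 and then 3.65, 3.33, 3.08 and 3.18, a late mean near background, and fell by 1.87 (adjusted p = 5.34e-05), or by 0.89 in the mean of its 3 probe sets. UGP2, which makes UDP-glucose for glycogen, read 10.98 to 11.49 in the mid and 9.81 to 10.01 in the late arrays, and fell by 1.34 (adjusted p = 0.000316). All 3 kept their calls in every leave-one-out fit and with the mitochondrial term (-1.51, -1.96 and -1.44).

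ALAS1, the housekeeping enzyme that starts heme synthesis, fell by 1.67 (SE 0.28, adjusted p = 0.00412), MRAP, which escorts melanocortin receptors to the cell surface, by 1.30 (SE 0.22, adjusted p = 0.00383) and SLC20A1, a phosphate transporter, by 2.02 (SE 0.40, adjusted p = 0.0117), each called in every leave-one-out fit. The mean of the probe sets of MRAP fell by 0.84. AREG, amphiregulin, an EGF-like growth factor, read 11.26 to 12.18 in the mid arrays and 7.97, 11.20, 10.66 and 10.09 in the late arrays, a fall of 1.85 (SE 0.46, adjusted p = 0.0435) that was -1.18 without late replicate 1 and whose call was lost in 6 leave-one-out fits (adjusted p up to 0.106). NPR3, which clears natriuretic peptides, fell by 1.72 (SE 0.44, adjusted p = 0.0476), a call lost in every leave-one-out fit, and differed by -2.82 with the mitochondrial term (adjusted p = 0.0252). PPIF, cyclophilin D of the mitochondrial pore, fell by 1.55 (SE 0.32, adjusted p = 0.0174), lost without mid replicate 1 (adjusted p = 0.0552), and differed by -0.78 with the mitochondrial term (adjusted p = 0.517).

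PTPRC, the pan-leukocyte phosphatase, read 4.30 to 4.50 in the mid arrays and 5.72, 6.37, 6.38 and 6.40 in the late arrays and rose by 1.81 (SE 0.29, adjusted p = 0.00339). The leukocyte integrin ITGB2 rose by 1.28, the tetraspanin CD53 by 1.66, GPNMB by 1.77, the lectin LGALS3 by 1.46 and LPL by 1.07. The mean of the probe sets was 1.16 for PTPRC, 0.97 for CD53, 0.92 for GPNMB, 0.56 for LPL and 0.68 for ITGB2, whose call it lost (adjusted p = 0.0835). The calls of LPL and ITGB2 were lost in 7 and 3 leave-one-out fits (adjusted p up to 0.0928 and 0.0588). GNLY went the other way and fell by 2.92 (SE 0.64, adjusted p = 0.0231), with overlapping groups, 1 of 2 probe sets called (mean of both -1.58) and the call lost without 6 of the 8 arrays.

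CDKN2A, the cell-cycle inhibitor p16 locus, read 4.09 to 4.37 in the mid arrays and 5.72, 5.35, 6.13 and 6.55 in the late arrays and rose by 1.74 (SE 0.33, adjusted p = 0.00929) in 1 of its 3 probe sets, whose mean rose by 0.59. CDKN2A averaged 5.07 in the mid-late and 4.26 in the very-late arrays. MLKL, the effector of necroptosis, rose by 1.05 (SE 0.22, adjusted p = 0.0182) and HTR2B by 2.08 (SE 0.48, adjusted p = 0.0284), calls lost in 3 and 6 of the 8 leave-one-out fits. With the mitochondrial term MLKL differed by 0.35 (adjusted p = 0.599).

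The largest difference of all genes, each taken by its brightest probe set, did not pass in the main fit. MBLAC2 read 5.61, 3.87, 3.74 and 3.94 in the mid arrays and 5.83, 10.02, 9.89 and 10.28 in the late arrays, a difference of 4.72 ± 1.40 (adjusted p = 0.0935). Late replicate 1 lay beside mid replicate 1, and the other 3 late arrays were more than 4 units above every mid array.

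Some called genes were neighbours on a chromosome, by the order of protein-coding genes in RefSeq's table. C1QB and C1QC, CTSK and CTSS, and ERAP1 and ERAP2 rose together, while HSD11B1 and G0S2 (-2.15 and -1.12), AMDHD1 and HAL (-3.83 and -0.57), and SLC17A4 and SCGN (-2.88 and -1.10) fell together. C1S and its neighbour LPCAT3 went opposite ways (1.66 and -0.81). So did TPP1 and TAF10, DLAT and PIH1D2, NT5C and JPT1, KLK7 and KLK8, ICE2 and RORA, and HDGFL3 and TM6SF1. Further pairs that rose or fell together are not named here. Whether neighbours changed together more often than other called genes was not tested.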
